A study of Mus musculus with 28 samples.

Results

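The genes described here encode the proteins of the mitochondrial ribosome, and were read in sorted CD4+ T cells of the mouse small intestine. Members were chosen by symbol, as Mrpl or Mrps followed by a number and without the pseudogene mark, which took 78 of the 25124 genes of the deposited table. By symbol 49 belong to the large subunit and 29 to the small one. By the structure of the ribosome Mrps30 and Mrps18a sit in the large subunit, and Mrps36 is now known as part of the oxoglutarate dehydrogenase complex, so counts and the balance of the subunits are also given by structure. All 78 members passed the filter on low values, which asked for 1 TPM or more in 6 or more libraries and left 12182 genes for testing.

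The mitochondrial ribosome translates the few proteins encoded by mitochondrial DNA, which are core parts of the respiratory chain and of ATP synthase. Its ribosomal RNAs come from mitochondrial DNA, while every protein of it is encoded in the nucleus, made in the cytosol and imported. A part of these proteins has homologues in bacterial ribosomes, and another part is found only in mitochondria. Activated T cells are known to enlarge their mitochondria.

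Libraries came from live CD45+, CD90.2+, TCRb+ and CD4+ cells of the lamina propria, the connective tissue under the gut epithelium, of mice carrying T-bet-ZsGreen, a fluorescent reporter of the transcription factor T-bet. All 4 groups share that genotype. SPF mice, free of defined pathogens but with a gut flora, received an isotype control antibody (n = 6 libraries, 3 female and 3 male) or aCD3, an antibody that engages the T cell receptor complex (n = 6, 3 female and 3 male). GF mice, kept without microbes, received isotype (n = 10, 5 female and 5 male) or aCD3 (n = 6, 1 female and 5 male). Strain, age, dose and the time from injection to sampling were not used here, and nothing states that each library is 1 animal, so p-values measure the spread between these libraries. Replicates are named by sex and number, as in F1 or M3.

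The libraries held between 6765528 and 17860586 reads in genes, of which 10600 to 27257 lay in members. The 8 CD4 T cell markers, among them Cd3e, Cd4 and Thy1, summed to between 1761 and 2665 scaled TPM, and each averaged at least 1 in every group. TPM is a share of a library's total, and histone genes took 4.05% to 7.04% of it in SPF isotype and 23.8% to 26.8% in SPF aCD3. In GF the range was 3.79% to 9.24% for isotype and 5.39% to 25.97% for aCD3. Values were therefore divided by a median-of-ratios factor per library, and the result is called scaled TPM. Unscaled values are given beside each comparison that they change.

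Across all libraries the mean level of a member ran from 1.23 to 117.5 scaled TPM, with a median of 15.99, against 9.70 for all genes tested. The large subunit's median was 16.8 and the small subunit's 15.2. The highest members of the large subunit were Mrpl10 at 117.5, Mrpl43 at 90.6 and Mrpl36 at 85.7 scaled TPM, and the lowest were Mrpl23 at 1.25, Mrpl48 at 2.37 and Mrpl14 at 2.53. In the small subunit Mrps34 at 68.4, Mrps26 at 47.96 and Mrps30 at 45.0 scaled TPM were highest, and Mrps28 at 1.23, Mrps27 at 1.52 and Mrps36 at 2.57 were lowest, all placed by symbol. By structure Mrps7 at 32.4 and Mrps31 at 3.96 take the places of Mrps30 and Mrps36. The deposited values divide reads by the whole span of a gene, introns included, in 99.24% of rows, so this order favours short genes. Mrps6, at 15.2 scaled TPM over a span of 53891 bases, had the most reads per kilobase of exon length of the 74 members with such a length. Its value was 148.5 after scaling to the depth of a library as in RPKM, followed by Mrpl10 at 80.2. All reads counted for a gene enter this value, so any reads in its introns would add to it. Of the exon bases of Mrps6, 19.9% are shared with Gm49711 and 10.4% with Slc5a3 on the same strand, so reads of these genes may be counted in its level. The same holds for Mrps34, which shares 37.0% with Nme3 on the same strand and 63.4% with Mapk8ip3 on the opposite one. Mrpl23 rested on a mean of 17.5 reads per library and Mrpl10 on 1536.

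The promoters of 5 members are shown as examples of each motif searched and of a window without any, and were picked with their changes known, so they show no link between motif and change. Mrpl18, Mrpl10, Mrps22 and Mrpl36 rose with aCD3 in SPF mice and Mrps5 fell, while Mrpl34, Mrpl28 and Mrpl44, which rose more than Mrpl10, hold none of the 4 motifs. The sequences are from RefSeq on GRCm38.p6, read 5′ to 3′ on the gene's strand, and end at the base before the RefSeq start. Capitals mark 4 motifs searched on both strands, none of which overlapped another in these windows: CCGGAAGT, the core bound by factors of the ETS family such as GABP; CGCATGCG, bound by NRF1; AAGATGGC, bound by YY1; and CACGTG, the E-box bound by MYC. A run of capitals on the opposite strand appears as its reverse complement. The windows are chr17:12916092-12916341 on the minus strand for Mrpl18, chr11:97041332-97041581 on the plus strand for Mrpl10, chr9:98601680-98601929 on the minus strand for Mrps22, chr13:73330759-73331008 on the plus strand for Mrpl36 and chr2:127587176-127587425 on the plus strand for Mrps5.
Mrpl18: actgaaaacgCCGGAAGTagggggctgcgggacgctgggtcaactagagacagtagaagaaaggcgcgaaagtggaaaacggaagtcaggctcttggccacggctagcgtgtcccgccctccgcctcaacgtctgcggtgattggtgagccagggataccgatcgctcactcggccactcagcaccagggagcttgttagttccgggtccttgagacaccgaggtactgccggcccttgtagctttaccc
Mrpl10: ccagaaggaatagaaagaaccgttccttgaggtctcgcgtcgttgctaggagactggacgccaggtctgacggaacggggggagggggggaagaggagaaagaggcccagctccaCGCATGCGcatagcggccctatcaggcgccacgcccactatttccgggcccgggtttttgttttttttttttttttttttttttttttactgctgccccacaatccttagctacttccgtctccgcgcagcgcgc
Mrps22: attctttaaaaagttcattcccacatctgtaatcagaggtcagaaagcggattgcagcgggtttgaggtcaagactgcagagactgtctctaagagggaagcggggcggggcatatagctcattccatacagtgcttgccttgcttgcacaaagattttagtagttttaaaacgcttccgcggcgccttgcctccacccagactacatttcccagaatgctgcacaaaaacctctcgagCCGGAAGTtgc
Mrpl36: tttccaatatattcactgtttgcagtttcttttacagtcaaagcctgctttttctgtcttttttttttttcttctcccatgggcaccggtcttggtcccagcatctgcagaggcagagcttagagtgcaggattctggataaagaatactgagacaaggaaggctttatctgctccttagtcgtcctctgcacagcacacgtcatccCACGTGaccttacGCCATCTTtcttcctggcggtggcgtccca
Mrps5: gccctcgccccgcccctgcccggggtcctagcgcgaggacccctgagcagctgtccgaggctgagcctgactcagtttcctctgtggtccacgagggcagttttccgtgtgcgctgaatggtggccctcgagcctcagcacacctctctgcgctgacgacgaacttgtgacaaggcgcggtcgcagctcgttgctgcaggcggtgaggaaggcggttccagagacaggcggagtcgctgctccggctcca

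CCGGAAGT began 240 bases before the start of Mrpl18 and 11 bases before that of Mrps22. CGCATGCG began 135 bases before the start of Mrpl10. In Mrpl36 AAGATGGC lay on the opposite strand, 30 bases before the start, and CACGTG 43 bases before it. None of the 4 motifs was found in the window of Mrps5. Windows of 300 bases, reaching 50 bases past the start, were matched for 69 of the 78 members and numbered 75. CCGGAAGT was in 12 of the 75 and in 3.89% of all 32851 promoter windows, CGCATGCG in 7 and 1.87%, AAGATGGC in 12 and 2.75%, and CACGTG in 7 and 7.15%. At least 1 of the first 3 motifs was in 29 of 75 member windows (38.7%) and in 8.07% of all windows. The median GC content of the windows was 58.7% for members and 52.7% for all. A match is a description of letters and not of binding.

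By the outermost starts in GENCODE, 18 of 78 members (23.1%) and 6.8% of all 21951 protein-coding genes had a gene read away from them that began within 1000 bases without overlapping. Divergent pairs whose starts overlap, such as Mrpl18 with Tcp1 and Mrpl46 with Mrps11, are not in that count. The start of Mrpl54 lay 26 bases from that of Apba3 and that of Mrps18c 29 bases from that of Helq. Exons of 33 members shared bases with another gene. Reads of overlapping genes on opposite strands can be told apart only if counting used the strand, which is not given in the sources used here.

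The response to aCD3 with a flora present was measured between the SPF groups, aCD3 over isotype. Most genes of the mitochondrial ribosome rose: 56 of 78 members were higher after aCD3 and 4 were lower, at an adjusted p under 0.05 in limma over all genes tested. Of all 12182 genes, 28.5% were called higher and 31.6% lower. The median log2 fold change was 0.51 over the members and -0.05 over all genes. The members' levels in the 6 aCD3 libraries lay wholly above those in the 6 isotype libraries for 32 members and wholly below for 0, against 19% and 20.6% of all genes.

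In unscaled TPM 27 members were higher and 10 lower, when 14.2% of all genes were called higher and 50.7% lower. The median log2 fold change was then 0.15 for members and -0.35 for all genes. Of the 60 members called on the scaled values, 31 were also called on the unscaled ones. Fewer cells of a type and less RNA per cell cannot be told apart in RNA of pooled cells.

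**Figure D1:**
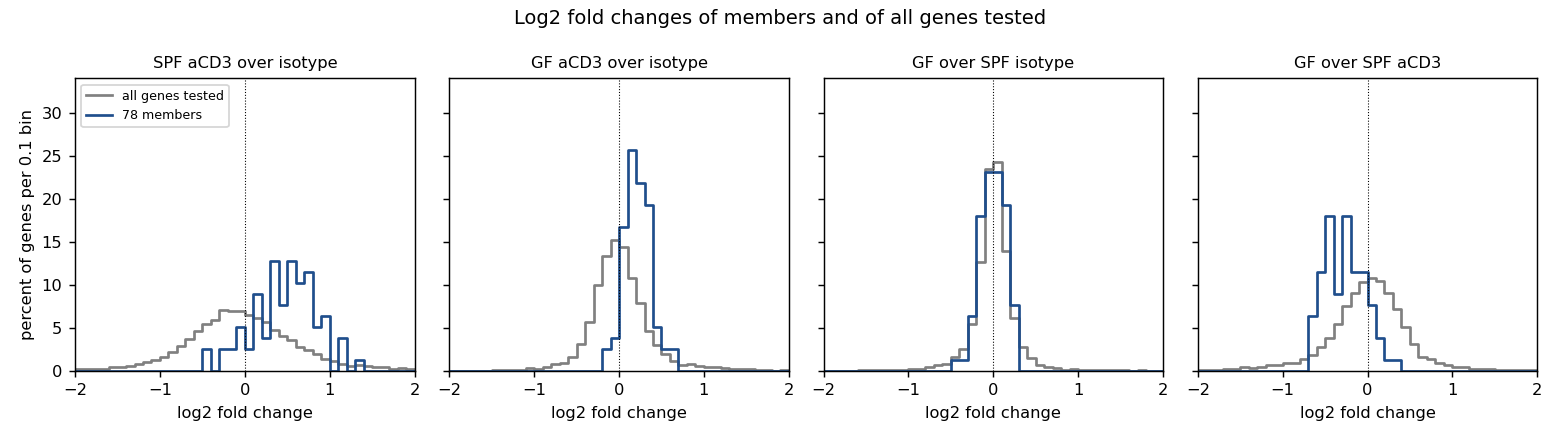
Percent of genes in each 0.1 bin of log2 fold change (x axis) for the 78 members (blue) and all 12182 genes tested (grey), in 4 comparisons on scaled TPM. The members' curve lies to the right of that of all genes with aCD3 in SPF (medians 0.51 and -0.05), to its left for GF over SPF under aCD3 (-0.29 and 0.02), and over it in the isotype groups.

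Among members near the functional core of the large subunit, Mrpl10 and Mrpl12 build the stalk that calls translation factors to the ribosome. Mrpl10 (NM_026154, mm10 chromosome 11, 97041582 to 97049213) ran from 89.2 over a median of 92.5 to 94.7 scaled TPM in the 6 SPF isotype libraries, and from 166.1 over 174.1 to 183.7 in the 6 SPF aCD3 libraries. The groups did not overlap, and the log2 fold change came to 0.91 (SE 0.13, limma adjusted p = 4.84e-06). Mrpl12 ran from 29.6 over 31.8 to 38.0 scaled TPM in isotype and from 48.2 over 57.6 to 72.6 in aCD3, again without overlap (0.84, SE 0.15, limma adjusted p = 5.96e-05). Mrpl11, at the base of the stalk, changed by 0.77, and its 6 aCD3 libraries also lay above all isotype ones. On unscaled TPM Mrpl10, Mrpl12 and Mrpl11 were at 0.54, 0.47 and 0.41, and still passed. Of the exons of Mrpl10, 14.1% of bases are shared with Gm11574 on the opposite strand.

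Mrpl18 (NM_026310, chromosome 17, 12911355 to 12916091), a homologue of a bacterial protein that binds a small ribosomal RNA, was between 38.4 and 51.8 scaled TPM in SPF isotype, with a median of 44.5, and between 96.6 and 103.2 in SPF aCD3, with a median of 102.5. Its level was thus tightly held within each group, with an SD of 4.64 in isotype and 2.67 in aCD3, and the log2 fold change was 1.17 (SE 0.17, limma adjusted p = 4.46e-06). Of its exon bases, 10.1% are shared with Tcp1 on the opposite strand.

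The highest log2 fold changes by the naming rule were those of Mrpl34, Mrpl28, Mrpl18 and Mrpl44. Mrpl34 (NM_053162, chromosome 8, 71464926 to 71465753), a short homologue of a bacterial protein, ran from 31.7 over 57.4 to 66.4 scaled TPM in isotype and from 118.0 over 124.7 to 165.1 in aCD3 (1.33, SE 0.27, limma adjusted p = 0.000156). Mrpl28, which also has a bacterial homologue, ran from 8.35 over 13.3 to 15.5 and from 24.3 over 28.9 to 40.2 scaled TPM (1.20, SE 0.23, limma adjusted p = 7.80e-05). Mrpl44, a mitochondria-specific protein that resembles ribonuclease III, ran from 3.76 over 7.32 to 8.07 and from 12.6 over 14.8 to 22.1 scaled TPM (1.13, SE 0.19, limma adjusted p = 2.80e-05). None of the 3 overlapped between the groups. On unscaled TPM Mrpl34, Mrpl28, Mrpl18 and Mrpl44 were at 0.96, 0.84, 0.80 and 0.78, and still passed.

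Mrpl3, which lies close to the site where peptide bonds are formed, was between 9.02 and 12.9 scaled TPM in isotype and between 9.86 and 13.5 in aCD3 (-0.04 on the log2 scale, SE 0.08, limma adjusted p = 0.696). Mrpl1 had a value of 0.11 (limma adjusted p = 0.161), with 3 of 6 aCD3 libraries above all isotype ones. Mrpl2, also near the catalytic centre, rose from 12.5 ± 2.23 to 18.6 ± 5.11 scaled TPM (SD, n = 6 each; 0.51, limma adjusted p = 0.0212), with overlapping groups. Mrpl58, a peptidyl-tRNA hydrolase that rescues stalled ribosomes, rose by 0.54 (limma adjusted p = 0.00216). On unscaled TPM Mrpl2 (limma adjusted p = 0.422) and Mrpl58 (limma adjusted p = 0.156) did not pass, and Mrpl3 was lower, at -0.38 (limma adjusted p = 0.000510).

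In the small subunit Mrps12, a homologue of the bacterial protein at the decoding centre, had the highest log2 fold change. It ran from 11.01 over 14.8 to 20.6 scaled TPM in isotype and from 20.7 over 28.7 to 43.6 in aCD3 (0.92, SE 0.20, limma adjusted p = 0.000418), so that the groups touched but did not overlap. Mrps22, a mitochondria-specific protein whose loss is known to cause a mitochondrial disease, ran from 5.81 over 7.08 to 7.88 and from 11.7 over 13.8 to 14.9 scaled TPM (0.85, SE 0.17, limma adjusted p = 0.000110). Mrps7 and Mrps16, which have bacterial homologues, rose by 0.57 (limma adjusted p = 0.00193) and 0.58 (limma adjusted p = 0.0114). The 3 mammalian homologues of a single bacterial protein, Mrps18a, Mrps18b and Mrps18c, rose by 0.38, 0.54 and 0.71 (limma adjusted p = 0.00436, 0.00748 and 0.000339). Mrps30 rose by 0.50 (limma adjusted p = 0.00189), and Mrps36, which is no ribosomal protein, by 0.60 (limma adjusted p = 0.0112). On unscaled TPM Mrps12, Mrps22 and Mrps18c still passed as higher, and Mrps7, Mrps16, Mrps18a, Mrps18b, Mrps30 and Mrps36 did not, with limma adjusted p between 0.118 for Mrps7 and 0.713 for Mrps18a. Of the 19 members with a role fixed for description, 16 were higher and 1 was lower, and on unscaled TPM 8 and 2.

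The 4 members that fell were Mrpl38, Mrps5, Mrps9 and Mrps25, 1 of the large and 3 of the small subunit. Mrpl38 (NM_024177, chromosome 11, 116131817 to 116138868), a mitochondria-specific protein of the central protuberance, ran from 7.53 over 9.40 to 11.3 scaled TPM in isotype and from 4.83 over 7.52 to 8.62 in aCD3 (-0.43, SE 0.13, limma adjusted p = 0.00626). Mrps5 (NM_029963, chromosome 2, 127587426 to 127603986), whose bacterial homologue lies where the messenger enters, ran from 6.79 over 8.95 to 10.3 and from 4.89 over 6.55 to 8.34 scaled TPM (-0.41, SE 0.10, limma adjusted p = 0.00111). Mrps9 changed by -0.28 (SE 0.09, limma adjusted p = 0.00640). Mrps25 changed by -0.19 (SE 0.07, limma adjusted p = 0.0318), and 69.8% of its exon bases are shared with Nr2c2 on the opposite strand. The groups overlapped in each of the 4. On unscaled TPM Mrpl38, Mrps5, Mrps9 and Mrps25 also passed, at -0.75, -0.73, -0.58 and -0.55.

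**Figure D2:**
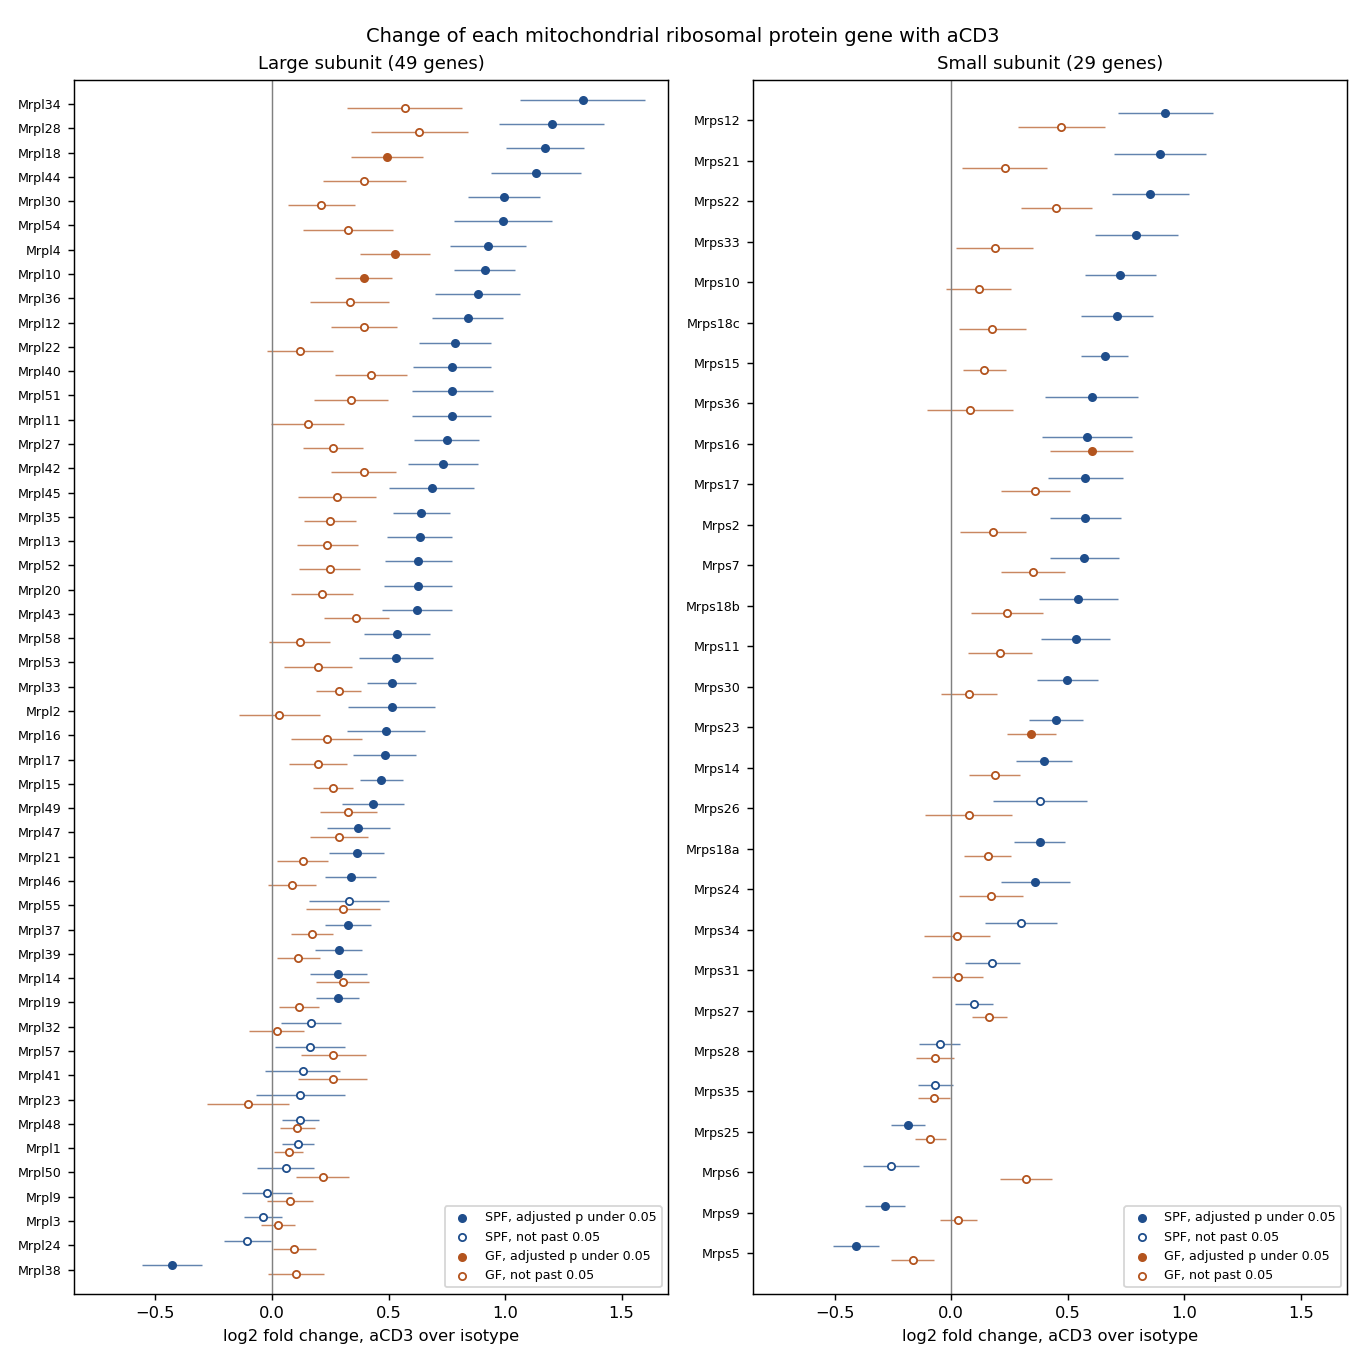
Log2 fold change with aCD3 on scaled TPM (x axis) of each member, in SPF (blue) and GF (orange) mice, with the SE as a bar; filled points passed an adjusted p under 0.05 in limma over all genes. In SPF the filled points run from -0.43 for Mrpl38 to 1.33 for Mrpl34, and in GF 5 points are filled.

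By subunit, 37 of 49 Mrpl genes were higher and 1 lower, and 19 of 29 Mrps genes were higher and 3 lower. On unscaled TPM these counts were 20 and 4 for Mrpl genes and 7 and 6 for Mrps genes. Placed by structure, the counts were 39 higher and 1 lower of 51 in the large subunit and 16 higher and 3 lower of 26 in the small one. Of the 48 proteins with homologues in bacterial ribosomes 37 rose and 2 fell, and of the 29 without 18 rose and 2 fell. On unscaled TPM these counts were 18 and 7, and 9 and 3. The 9 proteins of the small subunit without such a homologue held 3 that rose and 1 that fell, with a median log2 fold change of 0.30, against 0.57 for the 17 with one, and the difference was not tested. The 45 members whose exons overlap no other gene held 32 that rose and 3 that fell. Of the 29 members with 1 of the first 3 promoter motifs 23 rose and 0 fell, and of the 40 with a window and none of them 28 rose and 3 fell; the difference was not tested. On unscaled TPM 12 rose and 2 fell with a motif, and 12 rose and 5 fell without.

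The balance of the subunits was then read within each library, where a scaling factor largely cancels. The mean log2(scaled TPM + 1) of the 49 large-subunit genes was 4.12 ± 0.07 (SD, n = 6) in SPF isotype and 4.64 ± 0.07 (n = 6) in SPF aCD3, and that of the 29 small-subunit genes was 3.60 ± 0.02 and 3.99 ± 0.10. Neither subunit's values overlapped between the groups. The small subunit's mean minus the large subunit's was -0.52 ± 0.06 in SPF isotype and -0.65 ± 0.04 in SPF aCD3. In GF it was -0.51 ± 0.06 for isotype (n = 10) and -0.57 ± 0.09 for aCD3 (n = 6). By library the GF aCD3 values were -0.64, -0.64, -0.62 and -0.61 in M1, M2, M5 and F1. They were -0.47 and -0.44 in M3 and M4, against -0.60 to -0.42 in GF isotype. In SPF it ran from -0.59 to -0.43 in isotype and from -0.69 to -0.58 in aCD3, so 1 library of each group lay within the range of the other. Summed over members, the large subunit went from 1200.2 ± 88.2 to 1867 ± 87.0 scaled TPM and the small one from 492.5 ± 17.7 to 672.9 ± 60.6. The ratio of the sums, small over large, was 0.412 ± 0.022 in SPF isotype and 0.360 ± 0.022 in SPF aCD3. In GF the ratio was 0.417 ± 0.022 for isotype and 0.391 ± 0.035 for aCD3. By structure the small minus the large subunit was -0.47 in SPF isotype and -0.61 in SPF aCD3, and -0.47 and -0.52 in GF. The sign depends on which members enter: over those of at least 10 TPM it was 0.056 ± 0.068 and -0.035 ± 0.059 in SPF, and 0.051 ± 0.080 and 0.035 ± 0.083 in GF. These are descriptions with no test.

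**Figure D3:**
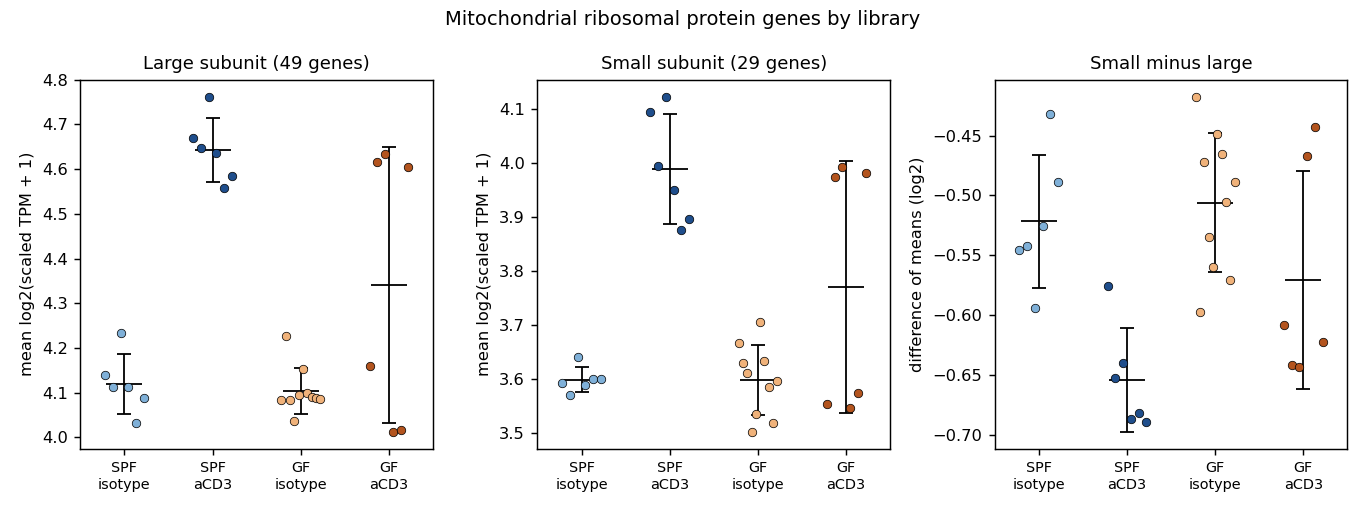
Mean log2(scaled TPM + 1) of the large-subunit and small-subunit genes and their difference (y axes, not starting at 0) in each library, by group; points are libraries and bars are the mean ± SD. The 6 SPF aCD3 libraries lie above all isotype libraries for both subunits, and the 6 GF aCD3 libraries fall at 2 separate levels.

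Members differed in length, and their changes went with it. The span of the members ran from 824 to 121711 bases. The 57 members of up to 10 kb held 46 that rose and 1 that fell, with a median log2 fold change of 0.57, and the 21 longer ones held 10 that rose and 3 that fell, with a median of 0.18. On unscaled TPM the counts were 22 and 3 for the shorter and 5 and 7 for the longer. Over all genes tested the medians were 0.08 for spans of up to 10 kb, with 30.8% higher and 19.0% lower, and -0.10 for longer ones, with 27.2% higher and 38.9% lower. Pearson's r between log10 span and log2 fold change was -0.47 across the 78 members and -0.13 across all 12182 genes. These are descriptions across genes of the same libraries, which are not independent replicates. The values divide reads by span, and log2(scaled TPM + 1) understates changes at low levels. The part of this scale in the relation was not tested.

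**Figure D4:**
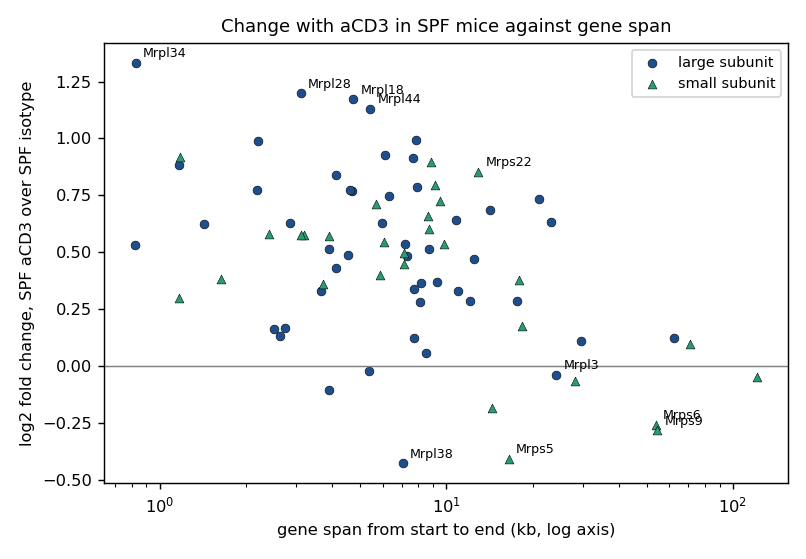
Log2 fold change with aCD3 in SPF mice (y axis, scaled TPM) against the span of the gene from start to end in kilobases (x axis, log scale) for the large-subunit (circles) and small-subunit (triangles) members. The members up to 10 kb have a median of 0.57 and those above it 0.18, and 3 of the 4 members that fell are longer than 10 kb.

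The other genes of mitochondrial translation were read from lists, whose counts stand beside 28.5% higher and 31.6% lower among all genes, or 14.2% and 50.7% on unscaled TPM. Of 5 subunits of the mitochondrial ribosome with other names, 3 rose and 0 fell: Aurkaip1 (0.73), Chchd1 (0.71) and Gadd45gip1 (0.60) passed, while Ptcd3 was at -0.12 (limma adjusted p = 0.154). Of 13 tested translation factors 6 rose and 1 fell, with a median of 0.28. Among those that rose were Tsfm (1.03), the exchange factor for the elongation factor Tufm, Tufm itself (0.49), Gfm1 (0.48), which moves the ribosome along the messenger, and Oxa1l (0.45), which inserts the new proteins into the inner membrane. The limma adjusted p was 9.04e-05 for Tsfm and 0.00439 for Tufm. On unscaled TPM 1 of the 5 subunits rose and 2 fell, and 1 of the 13 factors rose and 5 fell.

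In lists further from the ribosome's own proteins the shares that fell were near those of all genes. Of 25 genes for assembly of the mitochondrial ribosome and modification of its RNA, 4 rose and 7 fell (median -0.0042). The helicase Ddx28 rose by 1.22 (limma adjusted p = 0.000156) and the GTPase Noa1 by 0.50, while the RNA methyltransferase Nsun4 changed by -0.66 (limma adjusted p = 0.000365). Of 20 genes that charge mitochondrial transfer RNAs 3 rose and 6 fell (median -0.14), among them the synthetases Sars2 (1.01), Nars2 (-0.95), Ears2 (-0.90) and Mars2 (-0.77), all past the threshold. Of 12 genes for transcription and upkeep of mitochondrial DNA 3 rose and 3 fell (median -0.07), with Slirp at 0.56, Ssbp1 at 0.52, Tfb2m at -0.66 and Polg2 at -1.21. On unscaled TPM 1 rose and 13 fell of the first list, 1 and 12 of the second, and 0 and 8 of the third. Genes encoded in mitochondrial DNA were not analysed here.

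Of 8 tested factors known to act on promoters of such genes 2 rose and 4 fell. Myc rose from 78.1 ± 11.8 to 111.7 ± 38.1 scaled TPM (SD, n = 6 each; 0.46, limma adjusted p = 0.00831), with 127.5, 143.5 and 163.4 in the 3 female aCD3 libraries and 81.8, 79.5 and 74.5 in the 3 male ones, which lie within the isotype range of 60.1 to 91.1. Gabpa rose by 0.21, while its partner Gabpb1 changed by -1.08, Esrra by -0.52, Nrf1 by -0.34 and the coactivator Ppargc1b by -1.22. On unscaled TPM 0 of the 8 rose and 6 fell. Among cytosolic ribosomal protein genes, 31 of 83 rose and 10 fell, with a median log2 fold change of 0.14, and on unscaled TPM 8 rose and 41 fell. The levels of cytosolic and mitochondrial ribosomal protein genes were not compared by a test.

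Markers of other cells and of proliferation moved with the same contrast. The summed level of 11 proliferation genes was between 351.6 and 539.9 scaled TPM in SPF isotype and between 1618 and 1899 in SPF aCD3, with 11 of 11 at a mean of at least 1 in both groups. The 8 B and plasma cell markers summed to between 112.7 and 266.0 in SPF isotype, most of it Jchain at 164.1 ± 60.0, and to between 4.04 and 11.9 in SPF aCD3, with 5 and 2 of 8 at a mean of at least 1. Pax5, a transcription factor that defines B cells, was at 0.0432 and 0.0546 scaled TPM. The 8 myeloid markers summed to between 5.61 and 24.9 in isotype and between 76.4 and 147.6 in aCD3, of which Cd68 made 98.3 ± 27.98, while the defining genes Csf1r and Adgre1 were at 0.122 and 0.00406. The 4 markers of NK and innate lymphoid cells summed to between 24.7 and 41.8 in isotype and 9.79 and 14.4 in aCD3. The 6 stromal markers summed to between 4.07 and 41.0 in isotype and 0.640 and 2.82 in aCD3, and the 8 epithelial markers to between 8.56 and 20.5 and between 4.45 and 11.4. The 3 endothelial markers summed to between 8.57 and 10.3 in isotype and 3.46 and 4.94 in aCD3, nearly all of it Pecam1 at 9.31 and 4.27, while Cdh5 was at 0.00467 and 0.0617. The 4 erythroid markers summed to between 1.40 and 5.45 in isotype and 0.953 and 1.65 in aCD3. The 2 CD8 T cell markers had a median sum of 7.89 in isotype and 21.1 in aCD3. The 8 CD4 T cell markers summed to between 2037 and 2178 in isotype and 2412 and 2665 in aCD3, with no overlap. The means of Cd3e, Cd3d, Cd3g, Cd4 and Icos were higher in aCD3. Those of Thy1 (598.4 and 544.8), Cd28 (245.4 and 231.7) and Ptprc (131.6 and 110.0) were lower. The part of these in the members' change was not tested.

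The same contrast without a flora was read from GF aCD3 against GF isotype. Of 78 members 5 were higher and 0 lower, against 5.63% and 4.2% of all genes, so the share of members called higher, 6.4%, was near the background. The 5 were Mrps16 (0.60, SE 0.18), Mrpl4 (0.53, SE 0.15), Mrpl18 (0.49, SE 0.15), Mrpl10 (0.39, SE 0.12) and Mrps23 (0.34, SE 0.11), with limma adjusted p between 0.0406 and 0.0462. Mrpl4 is a homologue of a bacterial protein that lines the exit tunnel, and Mrps23 is found only in mitochondria. The log2 fold change was above 0 for 73 of 78 members, with a median of 0.21, against -0.01 for all genes, and 25 members had an unadjusted p under 0.05. With voom on recovered reads 2 members (2.6%) were higher and 0 lower, when 501 of all genes were higher and 428 lower (7.6% called).

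The 6 GF aCD3 libraries were not alike. Mrpl18 was 98.0, 105.4 and 95.4 scaled TPM in replicates M1, M2 and M5, and 44.4, 46.0 and 50.4 in F1, M3 and M4, against 39.7 to 54.4 in the 10 GF isotype libraries. Mrpl10 was 150.3, 159.5 and 180.8 scaled TPM in M1, M2 and M5 and 98.5, 87.7 and 86.0 in F1, M3 and M4, against 81.0 to 101.2 in GF isotype. Mrps16 was 45.0, 48.5 and 46.2 in M1, M2 and M5 and 31.8, 19.7 and 21.3 in F1, M3 and M4, against 17.3 to 27.5 in GF isotype. Libraries M1, M2 and M5 thus lay above every GF isotype library in each of these 3 genes, F1 did so in Mrps16, and M3 and M4 in none of the 3.

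**Figure D5:**
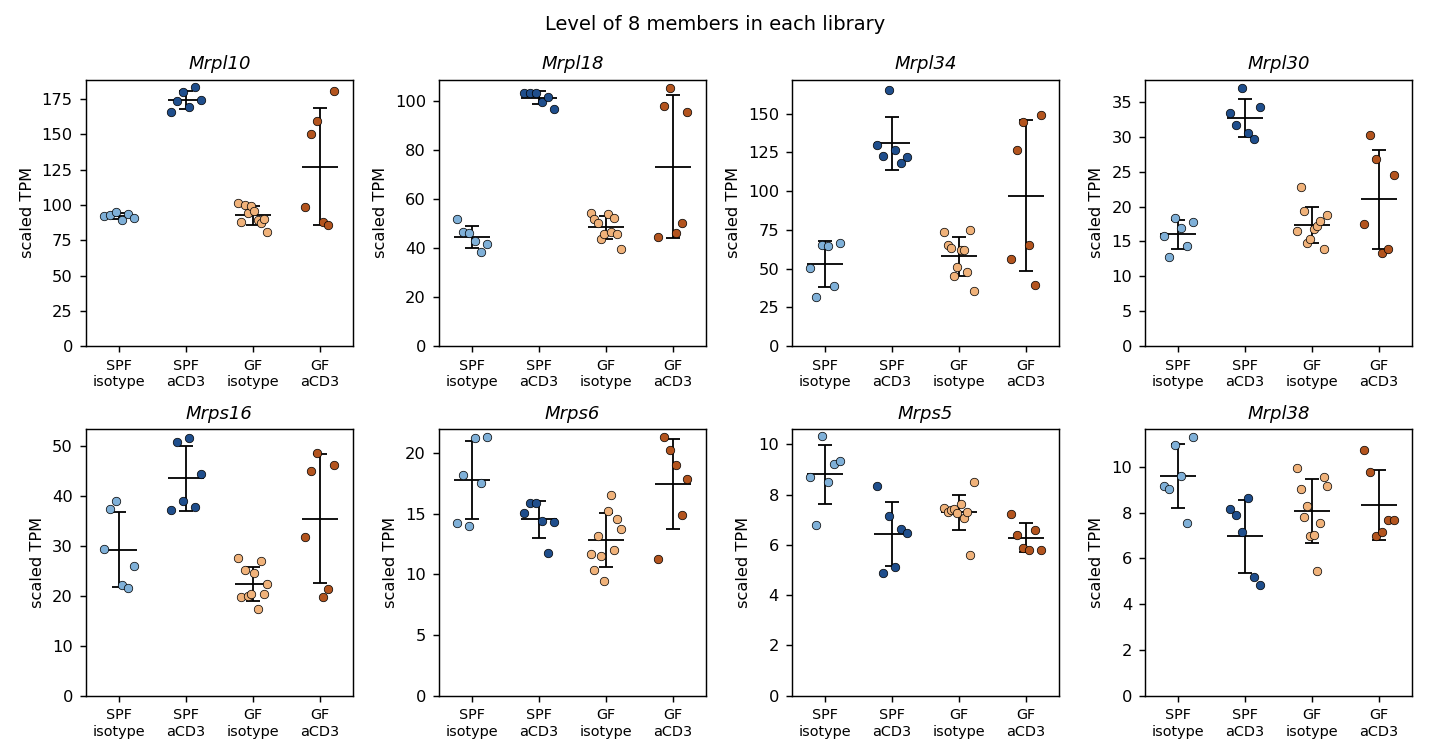
Scaled TPM (y axis, from 0) of 8 members in each library, by group; points are libraries and bars are the mean ± SD. In SPF the aCD3 libraries lie above all isotype libraries for Mrpl10, Mrpl18, Mrpl34 and Mrpl30, and in GF 3 of the 6 aCD3 libraries do so for the same 4 genes.

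The mean log2(scaled TPM + 1) over all 78 members showed the same spread: it was 4.38, 4.40 and 4.37 in M1, M2 and M5 and 3.93, 3.84 and 3.85 in F1, M3 and M4, against 3.84 to 4.00 in GF isotype and 4.304 to 4.52 in SPF aCD3. Lag3, a receptor of activated T cells that was between 624.8 and 989.1 scaled TPM in SPF aCD3, was 558.3, 503.4 and 628.0 scaled TPM in M1, M2 and M5 and 8.51, 13.9 and 10.7 in F1, M3 and M4, against 4.57 to 16.5 in GF isotype. Mki67, a marker of dividing cells, was 411.9, 498.3 and 370.2 in M1, M2 and M5 and 41.2, 130.6 and 58.6 in F1, M3 and M4, against 28.9 to 103.6 in GF isotype, so that M3 lay above that range. Histone genes took 23.4%, 23.1% and 25.97% of TPM in the former libraries and 5.39%, 7.46% and 6.43% in the latter, against 3.79% to 9.24% in GF isotype. The labels name no difference between these libraries, and they stay in 1 group in every test. Whether F1, M3 and M4 received or responded to the antibody was not tested, and each comparison with GF aCD3 rests on a group in which these 3 of 6 libraries lie within the GF isotype range in Lag3, in the histone share and in the mean over the members.

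The sample numbers in the column names of the GF libraries form 2 blocks, 25 to 33 and 48 to 54, and no label or header says what the blocks are. Of the aCD3 libraries M1, M2 and M3 are in the first and F1, M4 and M5 in the second. The members' median log2 fold change was 0.26 within the first block and 0.20 within the second, and 0 members passed in either, where 2 and 1 of all 12182 genes did. These fits within a block had no sex term. The aCD3 libraries of the first block are all male, and its isotype libraries are of both sexes. With the block of numbers as a covariate the median was 0.20, and 0 members and 0 of all genes passed. Leaving out 1 library moved the count of members called between 0 and 22; without F1, M3 or M4 it was 20, 22 and 19, and without M1, M2 or M5 it was 0. Calls over all genes moved alike: without F1 1816 genes were higher and 1653 lower, and without M1, M2 or M5 0 genes passed. On unscaled TPM 0 members passed, with a median of 0.07, when 2.46% of all genes were higher and 4.61% lower.

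Whether a flora alone moved these genes was asked by setting GF isotype beside SPF isotype. Few members passed: 0 were higher and 1 was lower in GF, against 0.443% and 1.17% of all genes, and 4 had an unadjusted p under 0.05. The median log2 fold change was -0.0035, with 39 members above 0 and 39 below. Mrps6 (NM_080456, chromosome 16, 92058336 to 92112227), a small-subunit protein with a bacterial homologue, ran from 9.41 over 12.6 to 16.5 scaled TPM in the 10 GF isotype libraries and from 14.0 over 17.8 to 21.3 in the 6 SPF isotype libraries (-0.44, SE 0.11, limma adjusted p = 0.0334). The groups overlapped, and the exons that Mrps6 shares with Gm49711 and Slc5a3 bear on this value too. On unscaled TPM this call was lost (-0.28, limma adjusted p = 0.143) and 2 other members were higher and 0 lower, when 6.42% of all genes were higher and 0.755% lower. SPF libraries carry sample numbers 1 to 12, apart from both GF blocks, so what goes with those numbers and the flora cannot be told apart. Summed B and plasma cell markers ran from 9.80 to 105.1 scaled TPM in GF isotype and from 112.7 to 266.0 in SPF isotype. Stromal markers ran from 0.337 to 2.33 and from 4.07 to 41.0, while the other marker lists overlapped. Their part in the result was not tested here either.

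Between the aCD3 groups, on scaled values, more members were called lower in GF than higher. Of 78 members 1 was higher and 25 were lower in GF aCD3, against 17.5% and 15.5% of all genes, and the median log2 fold change was -0.29 for members and 0.02 for all genes. This direction depends on scaling: in unscaled TPM 16 members were higher and 1 lower, when 48.9% of all genes were higher and 4.46% lower, and the median was 0.07 for members and 0.34 for all genes. Of the 26 members called on scaled values 2 were called on unscaled ones. Of the 25 lower members, 18 were among the 49 large-subunit genes and 7 among the 29 small-subunit genes, and the difference was not tested. Summed proliferation genes ran from 390.6 to 1991 scaled TPM in GF aCD3 (median 1138) and from 1618 to 1899 in SPF aCD3 (median 1803). The GF range thus covers the SPF range. Myeloid markers ran from 10.6 to 72.5 and from 76.4 to 147.6, and CD4 T cell markers from 1761 to 2254 and from 2412 to 2665. Their part in the result was not tested.

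The lowest log2 fold changes were those of Mrpl30 (-0.68, SE 0.16, limma adjusted p = 0.00379), Mrpl54 (-0.65), Mrpl36 (-0.64) and Mrpl44 (-0.60). On unscaled TPM Mrpl30 still passed (-0.31, limma adjusted p = 0.0374). Mrpl54, Mrpl36 and Mrpl44 did not, at -0.27, -0.26 and -0.25 (limma adjusted p = 0.185, 0.140 and 0.227). Mrpl30, a homologue of a bacterial protein, was between 13.3 and 30.2 scaled TPM in GF aCD3, with 30.2, 26.9 and 24.5 in M1, M2 and M5, and between 29.7 and 37.0 in SPF aCD3. Its level in 1 GF aCD3 library thus lay within the range of SPF aCD3. Mrps9 was higher in GF aCD3, with 5.44 ± 0.79 against 4.06 ± 0.49 scaled TPM (SD, n = 6 each; 0.38, SE 0.09, limma adjusted p = 0.00343). Without GF aCD3 replicate F1, M3 or M4 the number of members called was 6, 11 and 11 of 78 (7.7%, 14.1% and 14.1%). Calls over all genes fell as well, from 4020 of 12182 to 1660, 2569 and 2445 (13.6%, 21.1% and 20.1%).

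These comparisons share their groups, so their values are not independent. Tested directly, the aCD3 effect differed between GF and SPF for 4 members. It was higher in GF for Mrps6 and lower for Mrpl30, Mrpl22 and Mrps15, against 5.81% and 5.14% of all genes. Mrps6 had a log2 fold change of -0.26 in SPF (limma adjusted p = 0.0661) and 0.32 in GF (limma adjusted p = 0.0589), a difference of 0.58 (SE 0.16, limma adjusted p = 0.0312). Mrpl30 differed by -0.78 (SE 0.21, limma adjusted p = 0.0268), Mrpl22, which lines the exit tunnel, by -0.67 (SE 0.21, limma adjusted p = 0.0440) and Mrps15 by -0.52 (SE 0.14, limma adjusted p = 0.0243). Each of these 3 rose in SPF, with 6 of 6 aCD3 libraries above all isotype ones, and did not pass in GF, where the log2 fold changes were 0.21, 0.12 and 0.14. In GF 4 of 6 aCD3 libraries lay above all isotype ones for Mrps6, M3 at 19.0 scaled TPM among them, 3 for Mrpl30, 2 for Mrpl22 and 1 for Mrps15. On unscaled TPM Mrpl30 and Mrps6 still passed (limma adjusted p = 0.0480 and 0.0269), and Mrpl22 (limma adjusted p = 0.0930) and Mrps15 (limma adjusted p = 0.164) did not, when 2.44% of all genes were higher and 1.04% lower. The number of members called was 1 without GF aCD3 replicate F1 or M3 and 2 without M4, and 13, 16 and 15 (16.7%, 20.5% and 19.2%) without M1, M2 or M5. Calls over all genes moved from 1334 of 12182 to 217, 466 and 431 without F1, M3 or M4. Without M1, M2 or M5 they were 2461, 2921 and 3013, in each case a higher share than that of the members.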

How the data were processed

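RNA of sorted CD4+ T cells was sequenced in 28 libraries. TPM values were made by the authors with analyzeRepeats.pl of HOMER, per the file headers, over RefSeq transcripts of mm10, with the option that condenses a gene's transcripts. The aligner's version, read filters and use of strand are not given in the sources used here. The labels name both a total RNA kit and polyA RNA. Another 26 deposited TPM columns match no sample of the series and were not used. The other columns used (start, end and length, in bases) are the authors' own and were taken as deposited.

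TPM was divided by a median-of-ratios factor per library, from 9369 genes at 1 TPM or more in all 28 libraries. Genes with 1 TPM or more in 6 or more libraries were tested with limma 3.58.1 (R 4.3.3) on log2(scaled TPM + 1), with a mean per group, a sex term and empirical Bayes moderation with a trend. That scale, with a pseudocount of 1, understates changes at low levels. Benjamini-Hochberg adjustment ran over all 12182 genes within each of 5 comparisons, at a threshold of 0.05. Low TPM values were whole multiples of a step, within 0.1 read, in 100% of those checked, which gave the reads for depth and for voom.

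Named members are those with a role fixed for description, and in each comparison the 4 highest and 4 lowest log2 fold changes past the threshold with a mean of at least 5 scaled TPM in a group; levels add the 3 highest and lowest of each subunit. Examples of a list are up to 4 genes with the largest change in SPF. The members and lists were chosen with earlier results of these data known. Promoters are from RefSeq, exon overlaps from GENCODE on the same build. The fit was tested on simulated data. Python 3.11.15, NumPy 2.4.6 and pandas 2.3.3 were used. Alternatives were other scalings, pseudocounts, filters, voom, array weights, a replicate block, the block of sample numbers of GF libraries and leaving out each library.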

Additional observations from a re-analysis of the deposited data

Results flagged for a closer look

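In 9 of 148 sets of values from a group of 6 or 10 libraries, 1 library stood far from the others, and chance gives about 1 in 20, or 7.4. In SPF isotype Mrpl11 was 6.81 scaled TPM in F2 against 10.8 to 11.97 in the others, and Mrps18a was 6.86 in M1 against 4.89 to 5.61. In SPF aCD3 replicate F3, Mrpl34 was 165.1 against 118.0 to 129.9 and Mrps18b 15.9 against 9.93 to 11.8. In GF isotype Mrps5 was 5.62 in M4 against 7.06 to 8.49, Mrps9 was 6.90 in F4 against 4.81 to 5.84, and Mrps18b was 11.1 in M2 against 5.78 to 8.62. In GF aCD3 Mrps9 was 6.99 in M4 against 4.77 to 5.36, and Mrpl1 was 6.92 in M2 against 5.66 to 6.09.

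The aCD3 effect differed between GF and SPF, by the limma test of the difference itself, for Mrpl30 (-0.78), Mrpl22 (-0.67), Mrps15 (-0.52) and Mrps6 (0.58). Of all genes 5.81% were higher and 5.14% lower in this test. On unscaled TPM Mrpl22 and Mrps15 did not pass (limma adjusted p = 0.0930 and 0.164). Mrps6 had log2 fold changes of -0.26 in SPF and 0.32 in GF, neither of which passed alone.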

How the results depend on the processing

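In SPF aCD3 against isotype the count of members called stayed within 1.5 times of 60 under every alternative but unscaled TPM, which gave 37, and was 57 to 60 when 1 library was left out. The median log2 fold change, 0.51, was above 0 throughout: 0.15 unscaled, 0.42 without Rn45s and histone genes, 0.42 with quantile normalization, 0.41 with a pseudocount of 5, 0.58 with voom, and 0.47 to 0.53 with 1 library left out. In GF aCD3 against isotype the count of 5 became 0 unscaled and 0 with no low-value filter. It was 3 (3.8%, against 9.8% of all genes) with quantile normalization and 9 of 68 (13.2%, against 14.6%) at a TPM of at least 5. With voom it was 2 (2.6%, against 7.6%) and with array weights 11 (14.1%, against 16.5%). It was 0 with the block of sample numbers as a covariate or in either block alone. Leaving out 1 library gave 0 to 22, and moved the count by over 1.5 times for every library but SPF isotype F2 and GF isotype F1; the median ran from 0.15 to 0.28. In GF against SPF isotype the count of 1 became 2 unscaled, without Mrps6, and the unscaled median was 0.14. Without Rn45s and histone genes the count was 10 of 78 (12.8%), all higher (median 0.18). In that fit 19.6% of all genes were called (2257 higher and 113 lower, median 0.19). The count was 2 (2.6%, against 4.6% of all genes) with array weights, and 0 to 1 with 1 library left out. It was 0 without SPF isotype F2, M1, M2 or M3 or GF isotype F2, F5 or M3. In GF against SPF aCD3 the count of 26 became 17 unscaled, where the median turned from -0.29 to 0.0694. Without Rn45s and histone genes the count was 12, of which 10 were higher and 2 lower (median -0.0284), when 4949 of all genes were higher and 606 lower. With array weights it was 7 (9.0%, against 14.3% of all genes), and with 1 library left out 6 to 36 (median -0.34 to -0.22). For the difference of the aCD3 effects the count of 4 became 2 (2.6%, against 4.9% of all genes) without Rn45s and histone genes. It was 10 (12.8%, against 15.1%) with voom and 2 (2.6%, against 6.8%) with array weights. Without SPF aCD3 M3 it was 2 (2.6%, against 6.1%), and it ran from 1 to 16 with 1 library left out. The median was -0.0698 unscaled and -0.32 to -0.20 with 1 library left out. The change of the small minus the large subunit in SPF was -0.13, -0.19 as summed TPM, and -0.15 to -0.11 with 1 library left out; in GF it was -0.09 to -0.05, between isotype groups 0.0008 to 0.033, and between aCD3 groups 0.058 to 0.099. The cause of these changes was not tested.

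The libraries share replicate names, but the labels do not say that these mark the same animals. Correlations of same-named libraries' deviations from their group means ran from -0.213 to 0.209. Between the SPF groups they ran from -0.0333 to 0.0996. With the replicate name as a replicate block, 58 members passed in SPF, 57 of them among the 60, while 0 passed for aCD3 in GF, 0 between the isotype groups, 0 between the aCD3 groups and 0 for the difference of the effects. Of all genes that fit called 3334 higher and 3678 lower for aCD3 in SPF (57.6%, against 74.4% of members). It called 0 higher and 0 lower for aCD3 in GF, 36 and 98 between the isotype groups, 2 and 0 between the aCD3 groups, and 14 and 18 for the difference. It uses only the names that the groups share. Depth limits the lowest members: Mrpl23 rested on 17.5 reads per library.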
